A study of Mus musculus with 4 samples.

Results

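The genes described here encode the extracellular matrix and basement membranes of the kidney. They were a list of 42 genes chosen by name and matched by symbol among the 32285 genes counted in every section, and all 42 were found. The list held 7 fibrillar and fibril-associated collagens, 14 basement membrane genes, 4 microfibril and network collagens, 6 elastic fibre genes, 6 matrix glycoproteins and 5 genes for proteoglycans and matrix Gla protein. No measured value was used to choose them, although earlier results of these data were known.

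Matrix proteins are secreted and assembled outside the cell. Fibrillar collagens form the cables of the interstitium, and type IV collagens, laminins, nidogens and perlecan form the sheets that underlie tubules, capillaries and the glomerular filter. Elastic fibres give arteries their recoil, and matricellular proteins such as tenascin C and thrombospondin 1 are known from many tissues as signals deposited at sites of injury rather than as load-bearing parts.

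The study compared normal and ischemic mouse kidneys with Visium, an array of barcoded spots that captures polyadenylated RNA from a tissue section and tags each captured molecule with a unique molecular identifier (UMI). Of its sections 4 were used, 2 of normal kidneys and 2 of kidneys that had 30 min of ischemia on both sides and were collected after 24 h of reperfusion. All came from left kidneys of wild-type C57BL/6J male mice of 7 to 8 weeks, which were decapsulated, snap-frozen and cut at 10 µm, and all lay on 1 slide. No source used here names the mouse behind a section. The study describes technical replicates, so p-values measure the spread between sections, which may be technical.

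The sections held 25957128 to 44528078 UMIs over 2401 to 2682 tissue spots, 10312 in all, and between 32 and 14109 UMIs of each matrix gene. Levels of single genes are given as CPM, counts scaled to a fixed library total, after TMM normalization. They are per gene and not per length, since the UMIs tag transcript ends. Sums of marker lists and maps over spots are plain CPM without TMM normalization, so they are on another scale. The TMM factors that divide plain CPM were 0.83 and 1.00 in the normal and 1.09 and 1.10 in the ischemic whole sections. The labels were checked with the tubular injury genes Havcr1, at 1.17 and 2.14 CPM in normal sections 1 and 2 and 1288 and 1279.7 CPM in ischemic sections 1 and 2, and Lcn2, at 5.94 and 7.97 against 2794 and 3284 CPM, so both matched them. Kidney markers were present in every section, the podocyte list at 77.4 to 128 CPM and the proximal tubule list at 3504 and 3509 CPM in normal and 625 and 592 CPM in ischemic sections. The sections also differed in what they held besides kidney parenchyma. The 6 adipocyte markers summed to 282 and 134.5 CPM in normal and 4.25 and 3.93 CPM in ischemic sections, and 106 and 48 spots were rich in them in the normal sections against 0 and 0 in the ischemic sections, where 1 of the 6 markers was at 0 in section 2. Urothelial markers stood at 202 and 530.4 CPM in normal and 35.2 and 64.5 CPM in ischemic sections.

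To ask which matrix genes differ 24 h after ischemia, counts were summed over each section and the conditions compared with edgeR's quasi-likelihood test at a Benjamini-Hochberg adjusted p of 0.05. Of the 42 genes, 29 were higher and 9 were lower in ischemic sections, and 4 did not pass. Across all 15305 genes tested 60.6% passed, 31.0% higher and 29.7% lower, so calls were common in every direction and a share of passing genes says little by itself. Of the calls over all genes 51.1% were higher with TMM scaling and 67.0% without it, a scaling that moves the median of all genes by 0.27 on the log2 scale, and of the calls among matrix genes 76.3% and 80.6% were higher. The median log2 fold change of the matrix genes was 0.80 against 0.04 over all genes. The values of the conditions did not overlap for 40 of the 42 genes, 30 above and 10 below, where 82.2% of all genes did not overlap, 43.0% above and 39.2% below. Among the genes that passed, adjusted p ranged from 6.3e-07 to 0.036. In bulk sums of this kind, more cells of a type and more RNA per cell cannot be told apart.

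The matrix glycoproteins held the widest range of changes. Tnc encodes tenascin C, a hexameric glycoprotein that is sparse in most adult tissue and is deposited during wound repair. It was at 2.47 and 5.58 CPM in the normal sections and 82.3 and 91.8 CPM in the ischemic sections, a log2 fold change of 4.48 (SE 0.27, adjusted p = 1.5e-06), the widest of the list. Spots with at least 1 Tnc UMI were 3.10% and 4.88% of the normal and 46.8% and 45.2% of the ischemic sections, at unequal depths. Thbs1, thrombospondin 1, which activates latent TGF-beta and is also stored in platelets, was at 13.7 and 21.8 against 86.0 and 89.9 CPM (log2 fold change 2.32, SE 0.18). The 5 platelet markers summed to 23.6 and 30.0 plain CPM in normal and 24.4 and 26.2 in ischemic sections, which are lower on the TMM scale. They went from 18.6 and 18.8 to 25.6 and 25.1 CPM in the outer stripe, values that overlap on the TMM scale. In the inner stripe they went from 20.4 and 28.6 to 37.0 and 40.8 CPM. They fell from 14.6 and 19.3 to 10.8 and 13.2 CPM in the cortex. They also fell from 155 and 131 to 49.1 and 44.8 CPM in the inner medulla and from 121 and 98.3 to 56.5 and 44.4 CPM in the pelvis. Of these markers 1 was at 0 in normal section 2 and 2 were at 0 in ischemic section 1. Their part in the values of Thbs1 was not tested. Sparc, which binds collagen as it is secreted, was at 131 and 137 against 382 and 375 CPM (1.50 on the log2 scale). These 3 genes showed no overlap between conditions, and each ischemic value lay well outside the normal spread.

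The other glycoproteins moved less or the other way. Fibronectin, Fn1, which cells bind through integrins and on which collagen fibrils assemble, was at 38.7 and 38.3 CPM in normal and 45.8 and 45.9 CPM in ischemic sections, a rise of 0.25 on the log2 scale (adjusted p = 0.036). Postn, periostin, was at 5.53 and 8.59 against 10.4 and 10.5 CPM (log2 fold change 0.58, adjusted p = 0.026). Both are weak calls that were lost when either ischemic section was left out, Fn1 at adjusted p of 0.24 and 0.25 and Postn at 0.057 and 0.064. Sparcl1, a relative of Sparc that is rich in vessel walls, fell from 41.0 and 45.1 to 21.4 and 21.3 CPM (-1.01 on the log2 scale).

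Of the 7 fibrillar and associated collagens 5 rose, 1 fell and 1 did not pass. Col3a1, the main chain of the thin reticular fibrils, was at 33.2 and 49.0 CPM in normal and 169.6 and 173 CPM in ischemic sections (log2 fold change 2.06, SE 0.17). The type I collagen chains Col1a1, at 13.9 and 21.0 against 59.6 and 63.7 CPM, and Col1a2, at 53.7 and 74.0 against 130.3 and 131 CPM, rose by 1.83 and 1.03 on the log2 scale, although they pair in the same molecule. The type V chains nucleate those fibrils. Col5a1 stood at 5.77 and 7.17 CPM in normal and 26.7 and 28.7 CPM in ischemic sections (2.11), and Col5a2 at 11.5 and 14.2 against 19.6 and 20.9 CPM (0.66). The fibril-associated Col12a1 did not pass, at 6.37 and 8.8 against 9.86 and 10.1 CPM (adjusted p = 0.06). Col14a1, another fibril-associated collagen, fell from 24.1 and 22.8 to 5.15 and 4.78 CPM (-2.24 on the log2 scale, SE 0.11, adjusted p = 6.3e-07), the smallest adjusted p of the list.

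Basement membrane genes moved both ways. Of the 14, 10 rose, 2 fell and 2 did not pass. Col4a1 and Col4a2, the type IV collagen chains found in nearly all basement membranes, were at 125 and 129 and at 99.7 and 89.1 CPM in the normal sections and at 405 and 400.0 and at 284 and 278 CPM in the ischemic sections, log2 fold changes of 1.66 (SE 0.12) and 1.57 (SE 0.12). Col4a3 and Col4a4, which with Col4a5 form the chains of the mature glomerular basement membrane and of some tubule segments, went the other way. Col4a3 fell from 42.4 and 51.2 to 25.1 and 24.1 CPM (-0.93, SE 0.11) and Col4a4 from 65.4 and 67.9 to 34.2 and 32.8 CPM (-0.99, SE 0.09). Col4a5 did not pass, at 8.92 and 12.8 against 13.4 and 12.2 CPM. The podocyte list, which marks the glomerular cells known to make these chains, stood at 77.4 and 111 plain CPM in normal sections. In ischemic sections it stood at 120.5 and 128 plain CPM, and on the TMM scale the conditions overlap. Its part in the values of these chains was not tested.

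The genes of each of these pairs lie head to head on the genome. In the GENCODE annotation of GRCm38, Col4a1 (chr8, minus strand) and Col4a2 (plus strand) start 21 bases apart, and Col4a3 (chr1, plus strand) and Col4a4 (minus strand) start 72 bases apart. Col4a5 is on chromosome X.

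The remaining basement membrane genes are those of laminins, their linkers and the vascular sheets. Col15a1 and Col18a1 encode the collagens of vessel and tubule membranes. Col15a1 was at 10.1 and 13.6 against 41.7 and 44.3 CPM (1.87 on the log2 scale) and Col18a1 at 105 and 118 against 286 and 299 CPM (1.39). Nid1, which links laminin to type IV collagen, rose from 10.5 and 12.8 to 30.6 and 31.1 CPM (1.42), more than its paralog Nid2, at 7.02 and 8.15 against 11.0 and 12.0 CPM (0.61), though the difference between them was not tested. Of the laminin chains, Lamc1 was at 9.43 and 13.5 against 27.4 and 30.2 CPM (1.34), Lama5 at 35.8 and 52.5 against 79.0 and 77.5 CPM (0.83) and Lamb1 at 66.3 and 68.9 against 97.2 and 97.5 CPM (0.53). Lamb2, the beta chain of the glomerular laminin, did not pass, at 45.4 and 57.5 against 41.5 and 42.7 CPM (adjusted p = 0.067). Hspg2, perlecan, the heparan sulfate proteoglycan of basement membranes, was at 25.2 and 34.1 against 44.4 and 50.9 CPM (0.69). Over the same sections the 10 endothelial markers summed to 459 and 606 CPM in normal and 746 and 803 CPM in ischemic sections and the 7 smooth muscle markers to 203 and 311 against 370.3 and 392 CPM, and the part of these cells in the values was not tested.

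All 4 microfibril and network collagens rose. The type VI chains form beaded filaments between basement membranes and the interstitium. Col6a3 was at 14.9 and 17.4 against 57.2 and 53.9 CPM (1.79), Col6a1 at 5.88 and 7.32 against 14.0 and 14.7 CPM (1.13) and Col6a2 at 8.38 and 10.6 against 15.4 and 16.8 CPM (0.76). The vascular short-chain collagen Col8a1 was at 2.49 and 3.26 against 5.54 and 5.79 CPM (0.99).

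Elastic fibre genes divided evenly, with 3 higher and 3 lower. Fbn1, the fibrillin scaffold of the fibre, rose from 11.2 and 13.3 to 36.1 and 34.2 CPM (1.53), and the crosslinking enzymes Loxl1, at 25.9 and 27.2 against 63.9 and 64.9 CPM (1.28), and Lox, at 2.93 and 4.75 against 6.83 and 9 CPM (1.06), rose too. Fbln5, which carries elastin onto the scaffold, fell from 116 and 113 to 37.4 and 35.4 CPM (-1.66, SE 0.10). Eln, elastin itself, fell from 8.48 and 10.4 to 5.92 and 6.07 CPM (-0.65) and Fbln1 from 19.8 and 30.9 to 13.2 and 16.5 CPM (-0.77), both calls that depended on spots rich in smooth muscle markers. Both were also lost without TMM scaling, and that of Eln without adipocyte-rich spots.

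The small leucine-rich proteoglycans, which coat collagen fibrils and limit their thickness, did not move as a group. Dcn, decorin, was at 71.0 and 96.6 CPM in normal and 15.4 and 15.5 CPM in ischemic sections, a fall of 2.44 on the log2 scale (SE 0.15, adjusted p = 1.8e-06) and the widest fall of the list. Lum, lumican, fell from 4.55 and 6.67 to 1.3 and 1.54 CPM (-1.98). Bgn, biglycan, which also signals to innate immune receptors when released, was slightly higher, at 181 and 184 against 254 and 267 CPM (0.52), and lost its call when either ischemic section was left out (adjusted p = 0.088 and 0.14). Vcan, versican, a large hyaluronan-binding proteoglycan, rose from 1.06 and 1.16 to 4.18 and 4.43 CPM (1.96). Mgp, an inhibitor of calcification, was at 382 and 427 against 396 and 379 CPM and did not pass (-0.06). Its sign changed to 0.20 without TMM scaling.

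**Figure D1:**
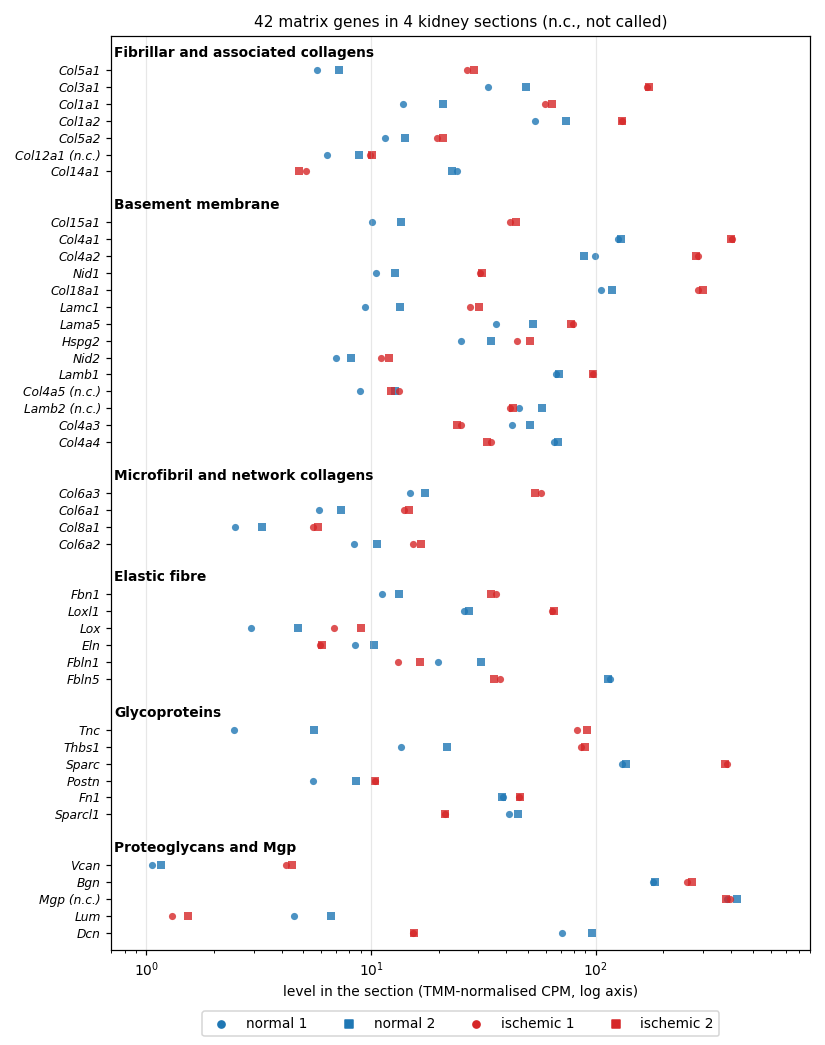
Level of each of the 42 matrix genes in the 4 sections, in TMM-normalized CPM on a log axis, by group and ordered by fold change. Circles are section 1 and squares section 2, blue normal and red ischemic. The red points lie to the right of the blue for 30 genes and to the left for 10, and overlap for Col4a5 and Mgp.

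Most of these changes were present with and without the spots rich in smooth muscle or adipocyte markers. Leaving out spots past a marker cut does not make the remaining tissue of the sections alike. Of the 38 calls, 32 kept their direction and call in every alternative tried. Eln turned with the spots used: 65.2% and 63.6% of its UMIs in the normal sections came from spots rich in the smooth muscle markers of vessel walls, against 22.9% and 21.8% in the ischemic sections, and without those spots its log2 fold change was 0.49 (adjusted p = 0.049) in place of -0.65. Sparcl1 moved from -1.01 to -0.12 (adjusted p = 0.29) and Fbln1 from -0.77 to -0.32 (adjusted p = 0.11) by the same removal. Without adipocyte-rich spots, their neighbours and the pelvis, the rise of Postn was 1.65 in place of 0.58 and Eln was at -0.21 (adjusted p = 0.32), while Dcn, of which 20.7% and 22.5% of the normal UMIs lay in edge spots, fell by 2.39 on the log2 scale under that choice.

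**Figure D2:**
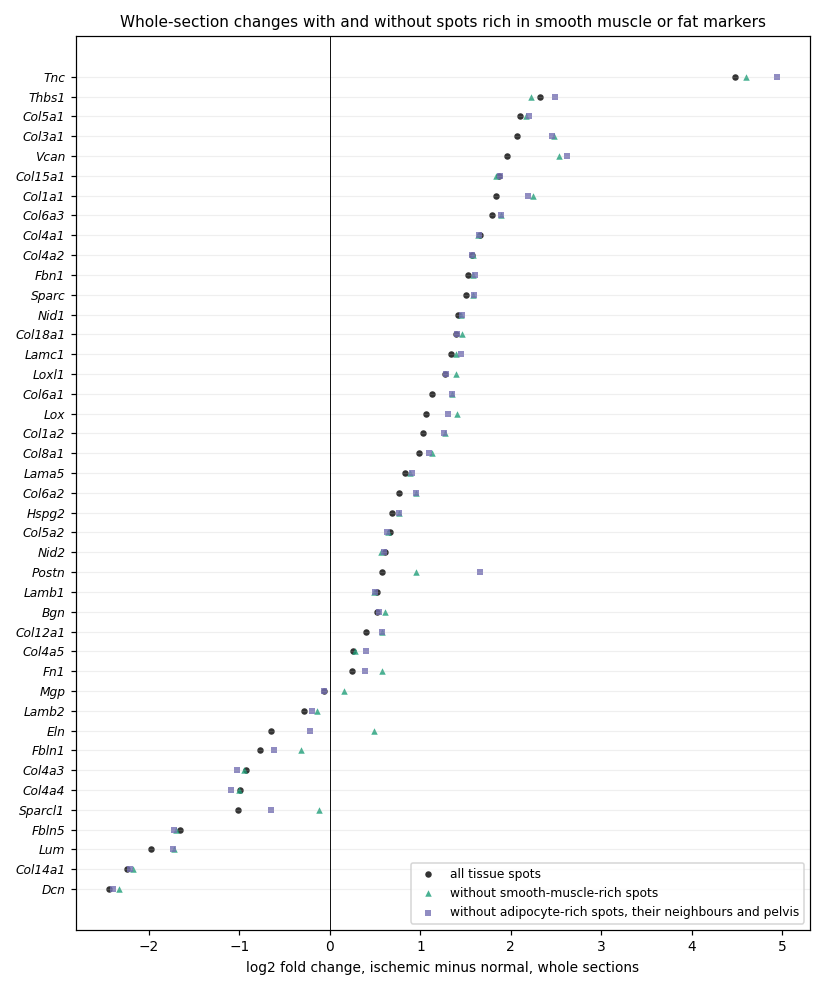
Log2 fold change, ischemic minus normal, of each matrix gene over all tissue spots (black circles), without spots rich in smooth muscle markers (green triangles) and without adipocyte-rich spots, their neighbours and the pelvis (violet squares). The symbols lie close together for most genes and apart for Eln, Sparcl1, Fbln1 and Postn.

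Sequence upstream of the transcription start was compared for the genes with an entry in the RefSeq promoter table (GRCm38.p6), 26 of the 42. The 250 bases before the start are shown for the 2 risers and the 1 faller with the widest whole-section changes among windows that touch no annotated exon, since these genes carry the contrast of the comparison. Capitals mark TATAAA (the TATA box), then CCAAT (the CCAAT box) and lastly GGGCGG (the GC box), each searched on both strands, and no matches overlap here.
Tnc, chr4:64047016-64047265, minus strand: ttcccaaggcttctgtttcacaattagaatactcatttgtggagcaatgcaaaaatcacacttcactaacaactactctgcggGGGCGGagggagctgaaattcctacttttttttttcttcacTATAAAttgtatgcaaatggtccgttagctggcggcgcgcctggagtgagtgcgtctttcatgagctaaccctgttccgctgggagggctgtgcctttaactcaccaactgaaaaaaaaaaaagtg
Col5a1, chr2:27886175-27886424, plus strand: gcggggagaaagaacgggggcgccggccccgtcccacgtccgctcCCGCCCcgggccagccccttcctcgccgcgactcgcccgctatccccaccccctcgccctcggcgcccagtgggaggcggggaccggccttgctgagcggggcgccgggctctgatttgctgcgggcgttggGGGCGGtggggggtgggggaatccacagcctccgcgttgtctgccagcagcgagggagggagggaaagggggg
Fbln5, chr12:101819120-101819369, minus strand: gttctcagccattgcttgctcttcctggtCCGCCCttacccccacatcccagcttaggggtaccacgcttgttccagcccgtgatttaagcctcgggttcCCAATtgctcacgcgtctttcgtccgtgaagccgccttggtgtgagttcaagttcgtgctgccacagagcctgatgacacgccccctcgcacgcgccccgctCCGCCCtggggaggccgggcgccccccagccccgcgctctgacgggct

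The window of Tnc held TATAAA, as did windows of Col3a1 and Postn, 12.5% of the 32 windows of matrix genes against 12.4% of all 32851 promoter windows of this length. CCAAT was in 28.1% of the matrix windows, Fbln5 among them, against 33.8% of all. GGGCGG was in 59.4% against 32.7% and was shared by the risers Tnc and Col5a1 and the faller Fbln5. These are matches of letters and not sites of binding.

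The genes that act on the matrix were taken from a list of 59 that was not picked for how they moved here, although earlier results of these data were known. Of these, 41 were higher and 8 lower in ischemic sections and 10 did not pass, where 60.6% of all genes tested passed, 31.0% higher and 29.7% lower. Among the ligands that drive matrix synthesis 3 of 5 rose and none fell, among receptors 16 of 21 rose and 2 fell, and among enzymes that fold, trim and crosslink collagen 11 of 14 rose and none fell. Proteases had 9 of 14 higher and 3 lower. Among protease inhibitors, Timp1 rose from 2.22 and 4.89 to 288 and 298 CPM (6.40 on the log2 scale, SE 0.29), and Timp2, Timp3 and Timp4 fell.

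The largest changes among these genes were mostly in proteases. Mmp10 was not counted in either normal section and had 70 and 57 UMIs in the ischemic sections, at least 25.3-fold higher against a floor of 3 counts per library. Mmp8, a neutrophil collagenase, likewise had 0 and 0 against 20 and 12 UMIs, at least 6.29-fold higher. Adamts4, which cuts proteoglycans such as versican, was at 0.244 and 0.362 against 8.39 and 10.3 CPM (4.96), and Adamts1 at 24.2 and 25.0 against 133 and 139 CPM (2.47). Mmp7 was at 0.678 and 1.01 against 12.6 and 11.1 CPM (3.83), Mmp9 at 0.596 and 0.761 against 4.06 and 3.28 CPM (2.45) and Mmp3 at 0.759 and 0.942 against 4.77 and 3.73 CPM (2.33). The receptors Itga5, the fibronectin integrin, at 4.31 and 4.86 against 39.0 and 38.6 CPM (3.09), and Cd44, which binds hyaluronan, at 2.41 and 3.7 against 20.2 and 19.5 CPM (2.72), and the crosslinker Loxl2, at 1.41 and 1.74 against 8.36 and 9.53 CPM (2.51), rose as well. Mmp8 and Mmp9 belong to the neutrophil list as well, which summed to 1.91 and 2.93 CPM in normal and 182 and 182 CPM in ischemic sections, and the part of neutrophils in these values was not tested.

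To place the changes in the kidney, spots were placed in 1 of 5 zones by marker genes, which were cortex, outer stripe, inner stripe, inner medulla and pelvis. The markers were read over each spot together with up to 6 adjoining spots, and counts were summed per zone. From 67.1% to 76.3% of spots per section stayed in their zone when read alone. The cortex and outer stripe markers are proximal tubule genes, which stood lower in ischemic sections as given above, so zone borders in ischemic sections rest on lower counts. The zones were also not of equal place: the median spot of the inner medulla lay 1 spot from a tissue edge in both normal sections and 5 spots from it in both ischemic sections, and in normal sections that zone held adipocyte markers at 4113 and 654 CPM and urothelial markers at 916 and 2355 CPM, against 0.762 and 1.28 CPM and 6.47 and 63.6 CPM in ischemic sections. The pelvis differed in the same way, from 2304 and 810.1 CPM to 1.62 and 0.793 CPM for adipocyte, from 5215 and 6336 to 766 and 1116 CPM for urothelial and from 738 and 759 to 338 and 404 CPM for fibroblast markers. In those 2 zones, ischemia and the tissue sampled cannot be told apart.

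Within zones, 22 matrix genes were higher and 8 lower in the cortex of ischemic sections, where 40.1% of the 14174 genes tested passed, 20.2% higher and 19.9% lower. The outer stripe had 28 higher and 6 lower (56.9% of all genes, 27.4% higher and 29.5% lower). The inner stripe had 25 higher and 5 lower (48.2%, 22.2% and 25.9%). The inner medulla zone was nearly balanced, with 14 higher and 13 lower (35.1%, 13.9% and 21.2%). The pelvis had 18 higher and 5 lower (25.2%, 10.7% and 14.6%). Genes higher in all 5 zones were 12, where 5.62% of all genes were: Tnc, Thbs1, Sparc, Col4a1, Col4a2, Col5a1, Col6a3, Col15a1, Col18a1, Nid1, Fbn1 and Loxl1. Genes lower in all 5 zones were 3, where 6.77% of all genes were: Dcn, Col14a1 and Fbln5. Of the higher genes, Tnc, Col4a1, Col4a2, Col6a3 and Col15a1 kept the call of each zone in every alternative tried. Of the lower genes, Dcn and Col14a1 did so. The others named lost the call of at least 1 zone in some alternative. Col12a1, Col4a5, Postn and Mgp were higher in at least 1 zone and lower in another. Of the 30 cortical calls 19 were kept in every alternative. This held for 30 of 34 outer stripe, 24 of 30 inner stripe and 14 of 27 inner medullary calls, and for 14 of 23 pelvic calls, with 14 genes passing in the pelvis without ischemic section 1.

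**Figure D3:**
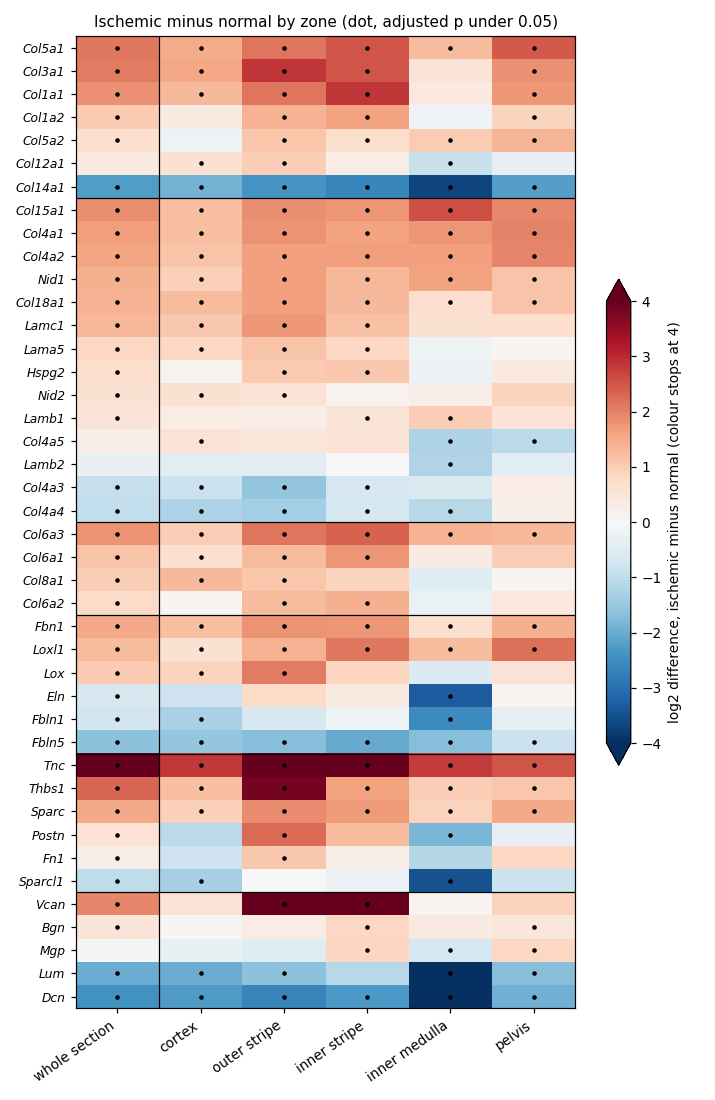
Log2 difference, ischemic minus normal, of each matrix gene over whole sections and in each zone, red higher and blue lower in ischemic sections, with colour stopping at 4 in either direction and a dot where the adjusted p was under 0.05. Rows of Tnc, Thbs1, Col4a1 and Col4a2 are red and those of Dcn, Col14a1 and Fbln5 blue in every zone, and the fitted values of Vcan in the stripes rest on 2 UMIs and 1 UMI in the normal sections together.

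The rises of Tnc and Thbs1 were wide in the outer stripe. In that zone Tnc was at 1.26 and 1.02 CPM in the normal and 133 and 145 CPM in the ischemic sections, a log2 difference of 6.88 (SE 0.35), and in the cortex at 1.81 and 4 against 18.5 and 20.7 CPM (2.82, SE 0.31). Thbs1 was at 11.3 and 12.7 against 166 and 170.2 CPM in the outer stripe (3.81, SE 0.24) and at 13.7 and 19.5 against 35.7 and 40.1 CPM in the cortex (1.20, SE 0.23). The change of Thbs1 elsewhere was 1.10 in the pelvis, 0.98 in the inner medulla and 1.61 for the inner stripe, so the outer stripe, where it was lowest in the normal sections, held its highest level in the ischemic sections. Tnc was highest in the inner medulla of both ischemic sections, at 166 and 167 CPM, and there it was already at 18.9 and 27.9 CPM in normal sections (2.79). Its rise was 2.52 in the pelvis and 5.42 in the inner stripe, the latter ranging from 4.35 without normal section 1 to 7.38 without normal section 2, where it exceeded the 6.75 of the outer stripe. The stripes were not tested against each other.

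**Figure D4:**
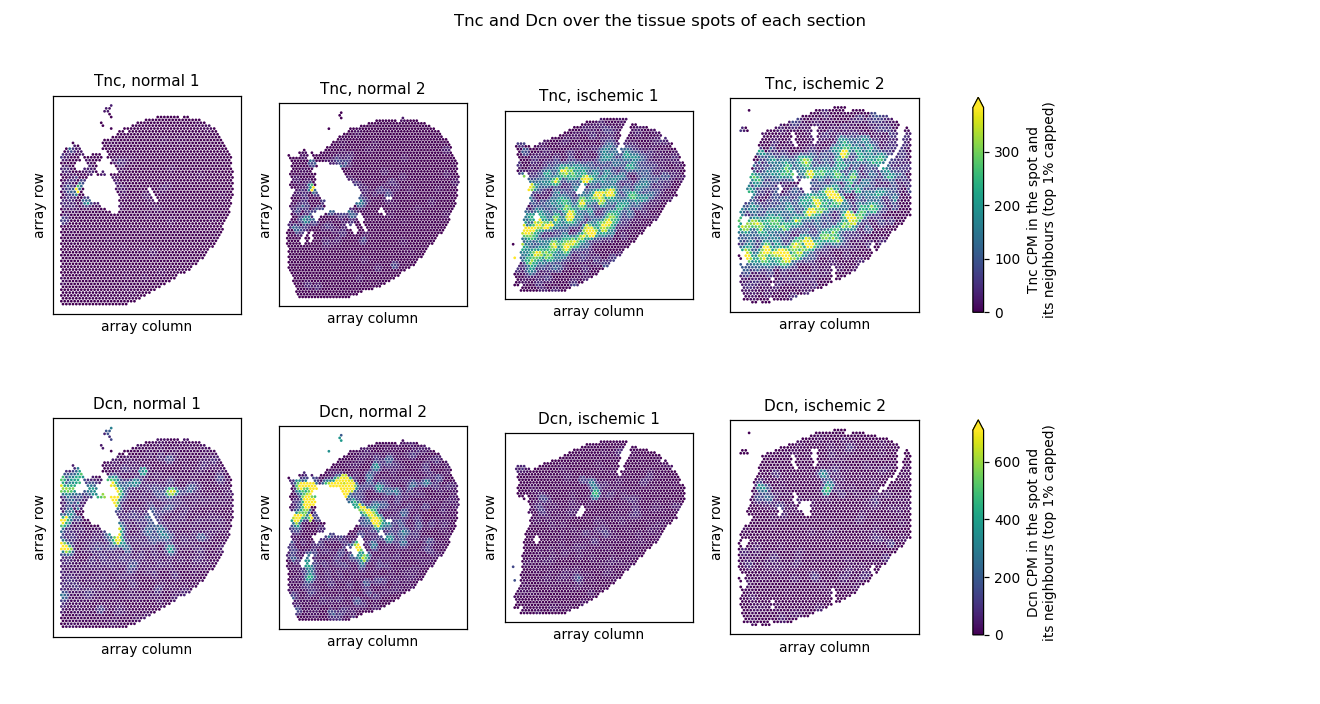
Level of Tnc (top row) and Dcn (bottom row) over the tissue spots of each section, as CPM in a spot and its up to 6 neighbours, on 1 colour scale per gene that stops at its 99th percentile. Tnc is low over the normal sections and forms bands inside the ischemic sections, while Dcn is high around the cavity and along tracts of the normal sections and low over the ischemic sections.

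A test of the difference asked whether the ischemic change in the outer stripe exceeds that in the cortex. Of the 42 genes, 19 had a larger and 1 a smaller log2 change in the outer stripe, where 21.5% of all genes passed, 8.06% larger and 13.5% smaller. Apart from Vcan, whose counts are given below, the widest differences were those of Tnc, 4.05 (SE 0.43, adjusted p = 1.6e-06), Postn, 3.33 (SE 0.67), Thbs1, 2.60 (SE 0.19, adjusted p = 3.4e-08) and Fn1, 1.93 (SE 0.48). In the outer stripe Tnc had 13 and 8 UMIs in the normal and 1286 and 1196 UMIs in the ischemic sections. Fn1 was at 33.3 and 31.5 against 65.1 and 73.0 CPM in the outer stripe (1.09, adjusted p = 0.023) and at 38.2 and 51.2 against 24.7 and 25.6 CPM in the cortex (-0.82, adjusted p = 0.11). The outer stripe call of Fn1 was lost by DESeq2 (adjusted p = 0.081) and without ischemic section 1 or 2 (adjusted p = 0.13 and 0.20). Postn was at 3.79 and 4.35 against 20.2 and 18.4 CPM in the outer stripe (2.25) and, on few counts, at 1.62 and 5.72 against 1.11 and 2.19 CPM in the cortex. Of the 7 fibrillar and associated collagens 3 passed (Col3a1, Col1a2 and Col5a2), and of the type VI chains Col6a2 and Col6a3 but not Col6a1 (adjusted p = 0.23). Col3a1 was at 26.9 and 26.7 against 192 and 195 CPM in the outer stripe (2.85) and 28.8 and 57.5 against 114 and 136 CPM in the cortex (1.54). Col4a3 was the gene with the smaller value, at -1.57 in the outer stripe against -0.87 in the cortex.

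These differences depended on single sections. With 1 section left out, 4 to 27 matrix genes passed, and without ischemic section 1 or 2 only 4 and 5 of the 20 calls were kept. Those of Tnc, Thbs1 and Col5a2 passed in every alternative tried. Marker lists in plain CPM also differed in the outer stripe between normal and ischemic sections. There the 7 smooth muscle markers went from 74.8 and 99.2 to 473 and 524.6 CPM and the 10 endothelial markers from 359 and 429.6 to 665 and 695 CPM. The 7 neutrophil markers went from 1.54 and 1.80 to 323 and 328 CPM and the 6 injured tubule markers from 21.1 and 42.4 to 5028 and 5057 CPM. The 8 fibroblast markers went from 121 and 139 to 150.5 and 154 CPM, a rise that does not hold on the TMM scale. The TMM factors that divide plain CPM were 0.66 and 0.78 in the normal and 0.95 and 0.95 in the ischemic outer stripe. For the cortex they were 0.74 and 0.86 against 0.93 and 0.93. In the cortex the same lists went from 179.8 and 431 to 207 and 196 CPM, from 457 and 584 to 573 and 625 CPM, from 1.68 and 2.47 to 70.1 and 81.3 CPM, from 21.6 and 28.7 to 2163 and 2125 CPM and from 155 and 307 to 153 and 155 CPM. Of the neutrophil list 1 gene was at 0 in each normal section. The part of these cells in the matrix values was not tested.

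**Figure D5:**
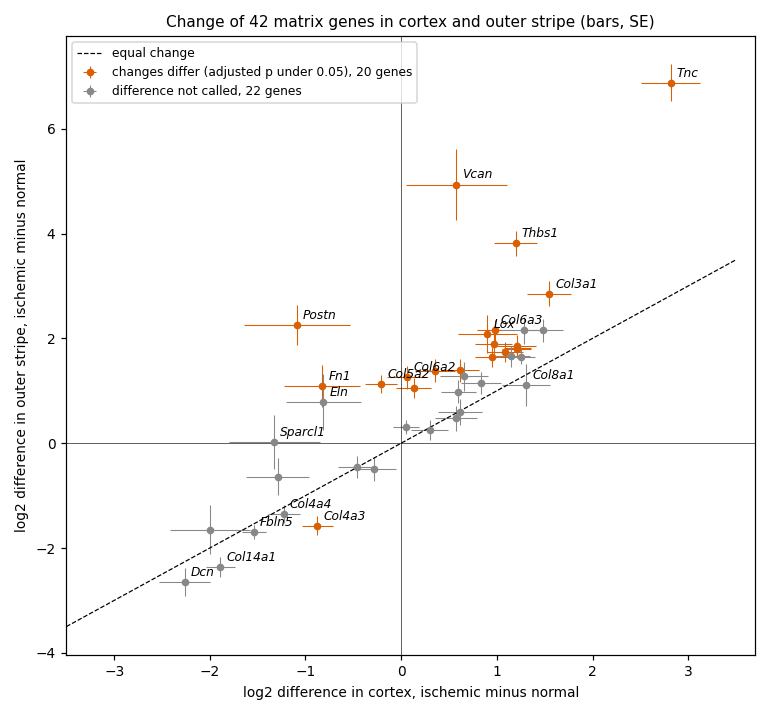
Log2 difference, ischemic minus normal, of each matrix gene in the cortex (horizontal) and in the outer stripe (vertical), with standard errors as bars and the line of equal change dashed. Orange marks the 20 genes whose changes differed between the zones, most of them above the line. Tnc, Vcan, Thbs1 and Postn lie farthest above it, and the value of Vcan rests on 1 UMI in the outer stripe of each normal section.

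The type IV chains differed in direction in the cortex and stripes. From pelvis to cortex, through inner medulla, inner stripe and outer stripe, the log2 changes of Col4a1 were 1.98, 1.76, 1.62, 1.81 and 1.21, and those of Col4a2 were 1.95, 1.63, 1.68, 1.66 and 1.15. Col4a4 was lower in the inner medulla (-1.11), inner stripe (-0.69), outer stripe (-1.35) and cortex (-1.23). Col4a3 fell by 0.67 in the inner stripe and did not pass in the inner medulla (adjusted p = 0.07). The calls of both in the inner stripe were lost without ischemic section 1 or 2, and that of Col4a3 in the cortex without ischemic section 2. Neither passed in the pelvis, where Col4a3 was at 33.4 and 25.8 against 38.2 and 33.3 CPM and Col4a4 at 53.5 and 34.3 against 46.5 and 56.2 CPM.

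The falls of Dcn, Col14a1 and Fbln5 were present in each zone. Dcn was at 47.6 and 92.0 against 13.6 and 15.5 CPM in the cortex (-2.26), 87.3 and 87.2 against 13.1 and 14.8 CPM in the outer stripe (-2.65) and 76.2 and 58.8 against 18.7 and 9.14 CPM in the inner stripe (-2.29). In the pelvis, where it was highest, it was at 259 and 305 against 74.3 and 75.2 CPM (-1.92). The change of Col14a1 was -2.60 in the inner stripe, -1.89 in the cortex and -2.37 in the outer stripe. Fbln5, which was highest in the cortex of all 4 sections, fell there from 157 and 158 to 56.0 and 52.0 CPM (-1.54). The fibroblast markers mark cells known to make decorin, and all 8 were counted in each section. Over whole sections they summed to 208 and 319.6 plain CPM in normal and 204 and 217 plain CPM in ischemic sections. By zone, in plain CPM, they went from 155 and 307 to 153 and 155 in the cortex and from 121 and 139 to 150.5 and 154 in the outer stripe. They went from 261 and 422 to 358 and 347 CPM in the inner stripe and from 1466 and 1047 to 335 and 351 CPM in the inner medulla. In the pelvis they went from 738 and 759 to 338 and 404 CPM. On the TMM scale used for Dcn, both ischemic sums lay below both normal sums, over whole sections and in each zone. Adipocyte markers in normal sections stood at 216 and 127 CPM in the cortex, at 0.764 to 19.5 CPM in the stripes and at the values given above in the inner medulla and pelvis. Across spots, the marker list that ran most closely with Col14a1 and with Fbln5 was the proximal tubule list in all 4 sections. Its markers summed to 3504 and 3509 plain CPM in normal and 625 and 592 plain CPM in ischemic sections. For Dcn the closest list was fibroblast or smooth muscle, depending on the section. The part of any of these cell types in these falls was not tested.

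Vcan was nearly absent from the stripes of normal kidneys. It had 1 and 1 UMI in the outer stripe of the normal sections against 37 and 35 UMIs in the ischemic sections, and 0 and 1 against 36 and 36 UMIs in the inner stripe, so any fitted fold there is set by single UMIs. In the pelvis it had 18 and 7 against 19 and 26 UMIs.

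Against the cortex, the ischemic change in the inner medulla zone was larger for 4 and smaller for 10 matrix genes, where 13.0% of all genes passed, 3.32% larger and 9.7% smaller. Eln fell there from 91.5 and 17.8 to 5.98 and 3.88 CPM and Sparcl1 from 372 and 43.9 to 16.7 and 18.3 CPM, with normal sections that differ several-fold from each other. Without adipocyte-rich spots these changes were -0.38 and -0.42 and did not pass, in place of -3.32 and -3.49. Smooth muscle markers in that zone summed to 2352 and 571 CPM in normal and 538 and 448 CPM in ischemic sections.

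Within a condition, the matrix genes were compared between zones with the section as a block. In normal sections the inner medulla zone had 28 matrix genes above the cortex and 1 below, where 40.2% of all genes passed (19.6% above and 20.6% below). Of these 29 calls, 13 were lost without adipocyte-rich spots and 8 without smooth-muscle-rich spots. The part of fat and vessel walls in that count was not tested further. The pelvis had 18 above and 8 below (47.0%, 24.0% and 22.9%). The outer stripe had none above and 15 below (22.8%, 12.5% and 10.3%), and the inner stripe 5 above and 7 below (29.2%, 14.2% and 15.0%). In ischemic sections the outer stripe had 19 above and 6 below (36.2%, 16.9% and 19.3%) and the inner stripe 29 and 3 (49.5%, 23.0% and 26.5%). The inner medulla had 25 above and 3 below (45.6%, 20.7% and 24.9%), as did the pelvis (36.6%, 16.5% and 20.1%). Without ischemic section 1 the counts in ischemic sections were 8 for the outer stripe, 16 for the pelvis, 15 for the inner medulla and 14 for the inner stripe, and without ischemic section 2 they were 9 in the outer stripe and 16 in the pelvis. Those in normal sections were 7 in each stripe without either ischemic section, 24 in the outer and 20 in the inner stripe without normal section 1, and 19 in the inner stripe without normal section 2. The outer stripe thus stood below the cortex in normal sections for 15 genes and above it in ischemic sections for 19. Tnc was -1.22 against the cortex in the outer stripe of normal sections (adjusted p = 0.04) and 2.83 in ischemic sections, and Thbs1 was -0.45 (adjusted p = 0.042) and 2.15. The 2 differences in normal sections were lost without either ischemic section, which share the estimate of the spread. They were also lost without normal section 2 and without smooth-muscle-rich spots. That of Thbs1 was lost by DESeq2 too, and that of Tnc without spots scored closely for 2 zones. The differences of both genes in ischemic sections passed in every alternative tried.

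Some genes kept their place in both conditions. Postn was high in the pelvis, 3.99 above the cortex on the log2 scale in normal and 4.77 in ischemic sections, and Dcn was 2.05 and 2.37 above it there. Col8a1 was lower in the inner stripe than in the cortex, by log2 differences of -2.23 in normal and -2.68 in ischemic sections. The differences of Col14a1 in the inner stripe were -1.50 and -2.21. Col15a1 was higher in the inner stripe by 0.95 and 1.51, and so was Lamb1, by 0.68 and 0.92.

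Across spots, the marker list whose level ran most closely with each matrix gene was found by Spearman correlation over spots pooled with their neighbours, as a description without a test, since spots of 1 section share a library. The fibroblast list came first for 16 and 16 genes in the normal and 12 and 16 genes in the ischemic sections, the smooth muscle list for 6 and 9 and for 9 and 12, and the endothelial list for 7 and 7 and for 7 and 5. The injured tubule list came first for 2 and 1 genes in normal and 8 and 4 genes in ischemic sections, and the macrophage list for 5 and 2 and for 0 and 0. The proximal tubule list did so for 4 and 3 and for 3 and 3 genes, with Col14a1, Col8a1 and Fbln5 among them in every section. The podocyte list was first for 2 and 2 and for 2 and 0, the neutrophil list for 0 and 1 and for 0 and 1, and the urothelial list for 0 and 1 and for 1 and 1.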

How the data were processed

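The authors deposited, per the file headers and labels, filtered matrices of raw UMI counts per spot and gene made with Space Ranger 1.3.0 against mm10, with no normalization. Tissue spots were assigned to 5 zones from marker lists over a spot and its up to 6 neighbours, and counts were summed per section and per section and zone, using zones with at least 20 spots. Sums were tested with edgeR 4.0.16 in R 4.3.3 (filterByExpr, TMM, quasi-likelihood test, Benjamini-Hochberg adjustment over all genes, two-sided, threshold 0.05), with a term per section in contrasts between zones. DESeq2 1.42.0, other scalings, no filter, a replicate block, sets of spots left out and each section left out were alternatives, those without smooth-muscle-rich spots by zone and without adipocyte-rich spots with neighbours and pelvis being chosen after seeing the data. On simulated counts, 187 of 200 changed genes were recovered with 1 false call for the whole-section comparison (15141 genes), and 164 of 200, with 54 of 90 changed 2-fold, for the outer stripe difference (12978 genes). The members, marker lists and related genes were chosen with earlier results of these data known. Every matrix gene is accounted for, and of the related genes the 12 with the widest changes are named, except 1 that is not reported here. Promoter windows came from the RefSeq table and gene positions from GENCODE, which matched 32158 of 32285 gene IDs.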

Additional observations from a re-analysis of the deposited data

Results flagged for a closer look

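The change of a gene between ischemic and normal sections differed between zones for 34 combinations of matrix gene and zone. This was by a test of the difference itself (edgeR, adjusted p under 0.05). Of all 14174 genes tested, 21.5% passed it for the outer stripe and 13.0% for the inner medulla. Of the 20 outer stripe calls, only those of Tnc, Thbs1 and Col5a2 passed in every alternative tried. In the outer stripe, as log2 change there minus log2 change in the cortex, the values were 4.05 for Tnc, 4.36 for Vcan, 3.33 for Postn, 2.60 for Thbs1 and 1.93 for Fn1. For the fibrillar collagens they were 1.33 for Col5a2, 1.26 for Col3a1 and 1.00 for Col1a2, and for type VI collagen 1.19 for Col6a2 and 1.19 for Col6a3. For basement membrane genes they were 0.90 for Hspg2, 0.69 for Nid1, 0.66 for Lamc1, 0.65 for Col15a1, 0.60 for Col4a1 and -0.69 for Col4a3. For Lox the value was 1.17, for Sparc 0.93, for Loxl1 0.78 and for Fbn1 0.58. The value of Vcan rests on 1 UMI in the outer stripe of each normal section.

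In the inner medulla zone, against the cortex, the differences were -3.35 for Lum, -2.48 for Eln, -2.27 for Dcn, -1.77 for Col14a1, -1.75 for Col4a5, -1.46 for Col12a1, -1.38 for Lox, -1.06 for Col3a1, -1.01 for Lama5 and -0.60 for Col18a1. They were 1.45 for Col15a1, 1.26 for Col5a2, 0.72 for Lamb1 and 0.55 for Col4a1. None of these 14 passed in every alternative, and 1 and 2 of them were kept without ischemic section 1 or 2. That zone held fat and urothelial markers in the normal sections, whose part in the result cannot be told apart from that of ischemia. The value of Lum rests on few UMIs, 30 and 26 in that zone of the normal and 2 and 1 in that of the ischemic sections.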

How the results depend on the processing

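Over whole sections the number of matrix genes that passed ranged from 35 to 41 around the 38 reported, with 37 by DESeq2, 38 with DESeq2's size factors, 36 without TMM scaling and 39 without a filter, while 6493 to 10877 genes passed in all. Same-numbered sections deviated with a correlation of 0.22 over genes, but the labels do not tie the numbers to an animal and there are only 2 pairs, so the pairing was not used; with the replicate number as a block 41 passed. Without smooth-muscle-rich spots Eln reversed to 0.49 and Mgp to 0.15, and without TMM scaling Mgp reversed to 0.20. In the inner medulla against the cortex, without adipocyte-rich spots, the difference of the changes reversed to 0.54 for Col3a1 and 0.53 for Eln. Giving all sections the same zone shares moved, among others, Fn1 to 0.05, Eln to -0.89 and Sparcl1 to -1.23.

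Against the cortex, the 15 genes of the outer stripe of normal sections became 9 by DESeq2, 28 without a filter, 8 without smooth-muscle-rich spots and 25 with zones set without neighbours, and the 14 of the inner medulla difference became 9 with zones set without neighbours. The cause was not tested. With each section left out in turn, the counts ranged from 14 to 30 for the pelvis between conditions, 7 to 24 and 7 to 20 for the outer and inner stripe against the cortex in normal sections, and 8 to 31, 14 to 37, 15 to 36 and 16 to 32 for the outer stripe, inner stripe, inner medulla and pelvis against it in ischemic sections. For the difference of changes they ranged from 4 to 27 in the outer stripe and from 1 to 25 in the inner medulla. An arm with 1 section was assumed to vary like the others. Of the remaining counts of matrix genes, 181 stayed within 1.5 times the value reported. Depth limits the low genes most: Vcan, Lum, Col8a1 and Eln rest on few UMIs in most zones.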
